A study of Mus musculus with 6 samples.

Results

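Genes for mitochondrial ribosomal proteins were taken as the array features whose symbol starts with Mrpl or Mrps followed by a digit. This gave 76 genes among 19572 features with a symbol, and 22206 features in all. The rule itself used names only. Proteins of the large subunit are encoded by 50 of these genes, which include Mrps18a and Mrps30 despite their names, and proteins of the small subunit by 25. The remaining gene, Mrps36, shares the name but encodes a subunit of the 2-oxoglutarate dehydrogenase complex. Among the ribosomal proteins, 44 have a bacterial homologue and 31 are specific to mitochondria. No symbol of the family was repeated among the features. All values of the family, from 4.09 to 17.61 on the log2 scale, lay above the 30th percentile of mean signal (3.65), so no gene was filtered out. Mrpl53 and Mrps6 were not analysed here.

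RNA from 6 whole hearts of male mice was hybridised to mouse Clariom S arrays, with 1 heart on each array. The left coronary artery had been ligated at 8 weeks of age to produce a myocardial infarction, and mice with an ejection fraction above 45% on day 2 had been removed from the study. TTg hearts (12W-TTg, genotype Tcf21iCre/Tomato/MGTH2A, n = 2) were taken 3 months after infarction. Ctrl hearts (genotype Tcf21iCre/Tomato) were taken at 3 months (12W-Ctrl, n = 2) and at 2 months (8W-Ctrl, n = 2). Thus all 6 mice carried Tcf21iCre, a Cre driven by the fibroblast gene Tcf21, together with Tomato, and the TTg mice alone carried MGTH2A, which encodes Mef2c, Gata4, Tbx5 and Hand2. TTg hearts at 2 months were not analysed here, so TTg at 3 months and Ctrl at 2 months differ in both genotype and time. The series describes the replicates as independent.

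Mitochondrial ribosomes translate the mRNAs of mitochondrial DNA, which encode membrane subunits of the respiratory chain and of ATP synthase. Their ribosomal RNAs are mitochondrial, whereas their proteins are encoded in the nucleus, made in the cytosol and imported. Cardiomyocytes are rich in mitochondria and depend on oxidative metabolism.

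Over all features, replicates correlated at 0.989 in TTg hearts, 0.986 in Ctrl hearts at 3 months and 0.984 in Ctrl hearts at 2 months. Of the 4 transgene factors, Tbx5 was at 10.72 and 9.31 in TTg hearts, against 6.42 and 7.47 in Ctrl hearts at 3 months. Mef2c was at 15.93 and 13.94 in TTg hearts, against 12.52 and 12.87 in Ctrl hearts at 3 months. Gata4 was at 14.05 and 13.43 in TTg hearts, against 13.22 and 13.75 in Ctrl hearts at 3 months, and Hand2 at 9.4 and 8.13 in TTg hearts, against 8.01 and 7.57 in Ctrl hearts at 3 months. Gata4 overlapped between TTg and Ctrl at 3 months and the other 3 factors did not, none passed the adjusted threshold in limma, and TTg replicate 1 was the higher TTg heart for all 4. Which part of each transcript the probes cover was not examined. The 12 cardiomyocyte markers averaged between 18.16 and 18.63 on each array, close to the highest value of any feature (19.93).

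The family moved largely as a block from heart to heart. Each gene was centred on its own mean over the 6 arrays, and the median of the 76 centred log2 values was taken on each array. This median was -0.01 and -0.02 in TTg hearts, -0.58 and -0.02 in Ctrl hearts at 3 months, and 0.43 and 0.12 in Ctrl hearts at 2 months. Replicate 1 of Ctrl at 3 months stood apart at the low end and replicate 1 of Ctrl at 2 months at the high end. Of the 76 genes, 56 had their lowest value on the low array and 47 had their highest value on the high array. The TTg replicates were close to each other, with 37 genes higher in replicate 1 and 39 higher in replicate 2. In Ctrl hearts at 3 months, replicate 2 was higher for 74 genes, with a median difference of 0.56 in its favour across the 76 genes. In Ctrl hearts at 2 months, replicate 1 was higher for 58 genes, with a median difference of 0.38. Over all 22206 features the centred medians of the deposited values lay between -0.03 and 0.00. The normalization of these values is not given, so the medians cannot show whether the arrays differed before it. In RNA from whole hearts, fewer cells of a type and less RNA per cell cannot be told apart.

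**Figure D1:**
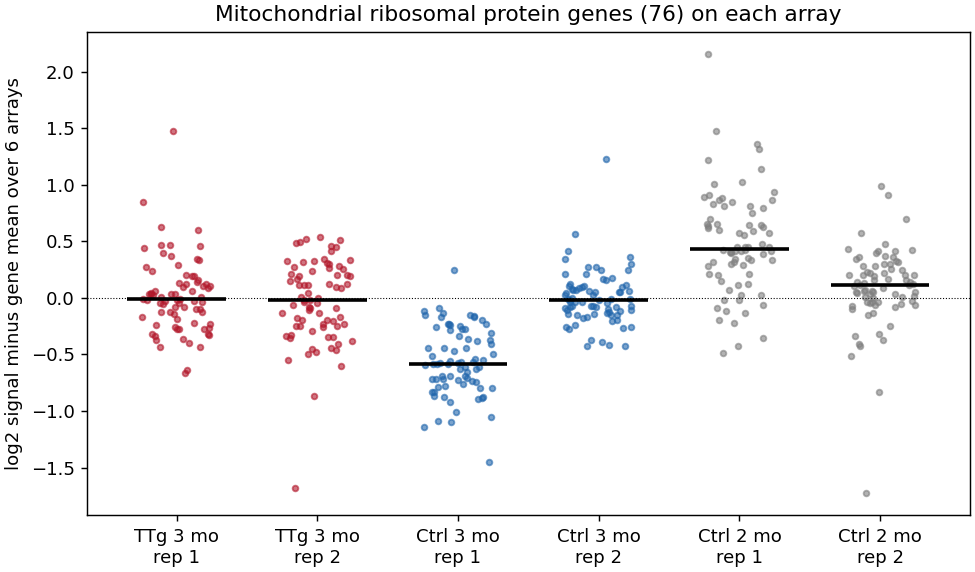
Each point is 1 of the 76 mitochondrial ribosomal protein genes on 1 array, as its log2 signal minus its own mean over the 6 arrays (y axis, log2 units), and the bar is the median of the 76. The bars lie at -0.01 and -0.02 for TTg, at -0.58 and -0.02 for Ctrl at 3 months and at 0.43 and 0.12 for Ctrl at 2 months, and the lone points far from the others on both TTg arrays and low on Ctrl replicate 2 at 2 months are Mrpl20.

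The genes were not equally tied to this pattern. Pearson's r between a gene and the mean of the centred family over the 6 arrays had a median of 0.79 among the 76 genes, against -0.04 among all features. The family mean contains each gene, the 6 arrays are shared, and 1 low and 1 high array weigh heavily, so r is given as a description. It was at or above 0.8 for 33 genes, led by Mrpl21 and Mrps36 at 0.99. It was under 0.5 for 12 genes and under 0 for Mrpl35 (-0.12) and Mrpl9 (-0.01). Among 13774 features outside the family that had a single symbol and were not dim, Nt5dc2 (0.998), Phospho2 (0.997), Ndufv2 (0.995), Dhrs1 (0.995) and Ndufb11 (0.995) followed the family mean most closely. Ndufv2 and Ndufb11 encode subunits of respiratory complex I. Ndufv2 was at 16.39 and 16.42 in TTg hearts, 15.60 and 16.45 in Ctrl hearts at 3 months, and 17.26 and 16.56 in Ctrl hearts at 2 months. As in the family, its low value was in replicate 1 of Ctrl at 3 months and its high value in replicate 1 of Ctrl at 2 months. Ndufv2 was picked by its r on these same arrays, so this likeness follows from the choice.

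**Figure D2:**
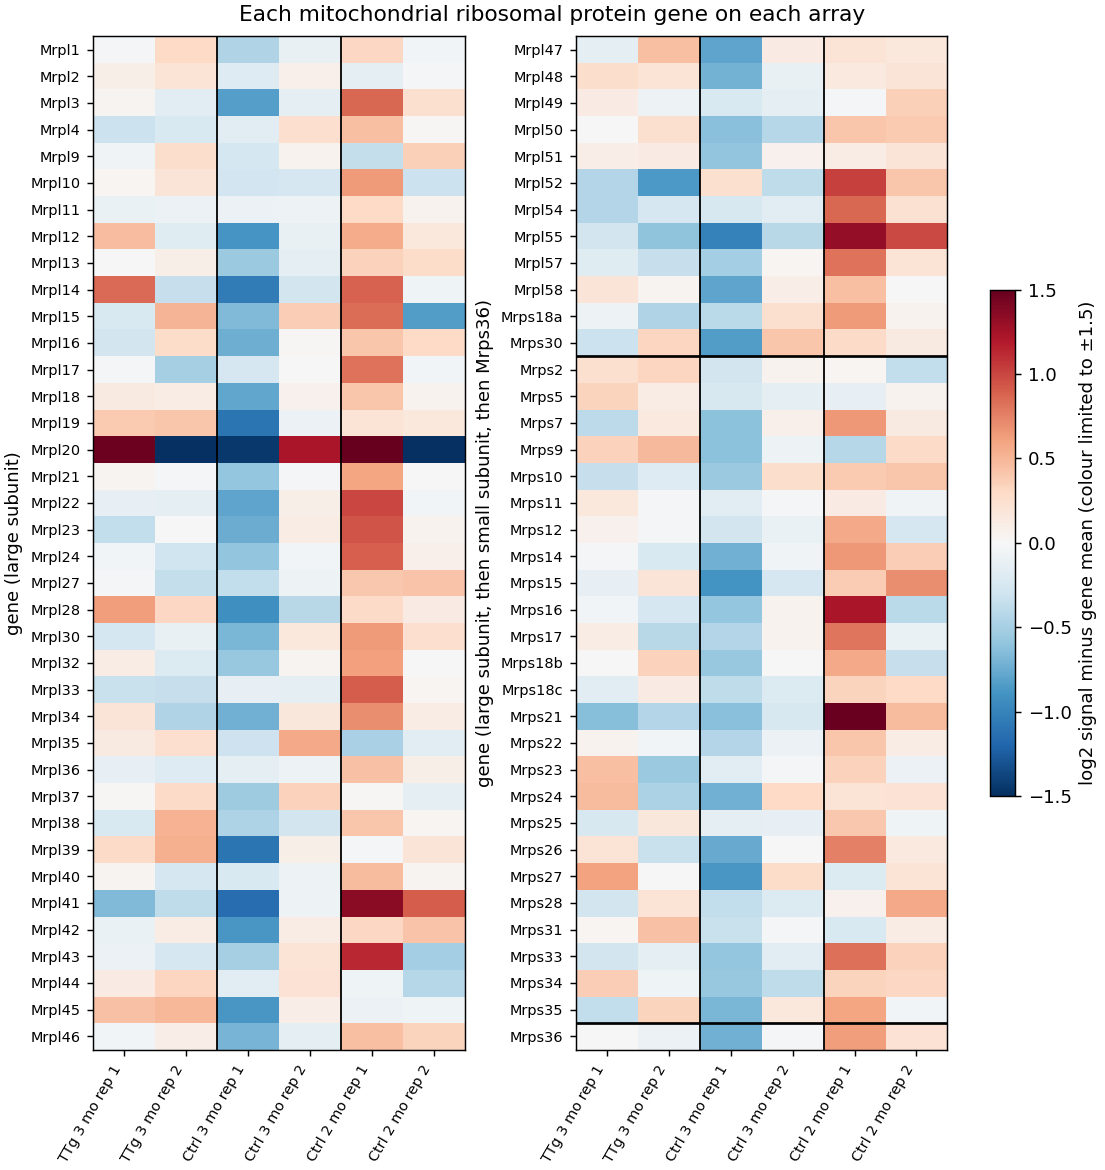
Each row is a gene and each column an array, and colour gives log2 signal minus the gene's mean over the 6 arrays, limited to ±1.5. Most rows are blue in the column of Ctrl replicate 1 at 3 months and red in that of Ctrl replicate 1 at 2 months, while Mrpl20 alternates between the replicates of every group.

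Promoters of the family were also examined, and 4 windows are printed here for genes described below. Whether they bear on the shared movement of the genes was not tested. RefSeq windows on GRCm38.p6, from 250 bases before to 50 bases after the transcription start, were matched for 67 of the 76 genes. Mrpl4, Mrpl13, Mrpl15, Mrpl19, Mrpl38, Mrpl54, Mrps28, Mrps34 and Mrps35 were not matched. Both strands were searched for 3 motifs of factors known to act at nuclear genes for mitochondrial proteins. The NRF1 motif, GCGC followed by any base and TGCGC, was present in 13 of the 67 windows (19.4%), against 4.78% of the windows of 27025 genes. The ETS motif CCGGAAG, the core bound by GABPA and its relatives, was present in 24 (35.8%), against 9.12% of all windows. The YY1 motif AAGATGG was present in 13 (19.4%), against 6.48%. At least 1 of the 3 was present in 41 windows (61.2%), against 18.4%, and no match of 1 motif overlapped a match of another in the family. The 27025 genes were not limited to those measured or above the dim level here, so these shares do not set the family against other expressed genes. A match is a stretch of letters and not a measured binding site. The 150-base windows below run from 120 bases before to 30 bases after the start, 5′ to 3′ on the gene's strand, with motif matches in capitals. Mrpl45 holds 3 NRF1 matches, Mrpl12 holds 1 NRF1 match, Mrps21 holds 1 NRF1 and 1 ETS match, and Mrpl52 holds 2 ETS matches and 1 YY1 match.
Mrpl45, chr11:97315596-97315745, + strand: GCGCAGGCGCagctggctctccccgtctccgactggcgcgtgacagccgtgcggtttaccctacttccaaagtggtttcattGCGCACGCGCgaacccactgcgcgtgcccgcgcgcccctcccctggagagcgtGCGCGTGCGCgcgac
Mrpl12, chr11:120484517-120484666, + strand: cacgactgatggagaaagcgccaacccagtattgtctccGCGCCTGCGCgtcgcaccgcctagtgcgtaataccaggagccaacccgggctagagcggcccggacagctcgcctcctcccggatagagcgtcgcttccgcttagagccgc
Mrps21, chr3:95871485-95871634, - strand: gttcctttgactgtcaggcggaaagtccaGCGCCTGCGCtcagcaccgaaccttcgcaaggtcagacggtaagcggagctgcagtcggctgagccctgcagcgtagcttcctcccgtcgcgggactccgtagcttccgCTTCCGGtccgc
Mrpl52, chr14:54426789-54426938, + strand: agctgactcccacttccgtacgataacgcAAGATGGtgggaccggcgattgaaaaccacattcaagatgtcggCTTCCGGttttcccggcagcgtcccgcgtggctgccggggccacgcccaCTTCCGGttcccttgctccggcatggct

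Differences between groups were also set out for genes with and without a motif. For TTg against Ctrl at 3 months, the median log2 difference was 0.215 both in the 13 genes with an NRF1 match and in the 54 without. For Ctrl at 3 months against Ctrl at 2 months it was -0.605 in the 24 genes with an ETS match and -0.515 in the 43 without. The largest gap among the 3 motifs and 3 comparisons was in TTg against Ctrl at 2 months, where the median was -0.522 with an ETS match and -0.215 without.

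TTg and Ctrl hearts at 3 months differ in the transgene, at the same time after infarction. Most of the family had a higher mean in TTg hearts, but no single gene passed the test. The mean was higher in TTg for 64 of the 76 genes and lower for 12, where 50.9% and 48.3% of all features were, and the median log2 difference was 0.248, against 0.010 over all features. None of the 76 genes reached an adjusted p under 0.05 in limma, where 0.0045% of all features (1 of 22206) did, and the smallest adjusted p in the family was 0.646. At an unadjusted limma p under 0.05, 6 genes were higher and 0 lower, against 3.35% and 4.11% of all features. In 26 genes both TTg hearts were above both Ctrl hearts, and in 4 genes both were below, against 19.1% and 19.3% of all features. The small subunit had a higher mean for 23 of 25 genes with a median of 0.25, and the large subunit for 40 of 50 with a median of 0.218. Genes with a bacterial homologue were higher for 37 of 44 (median 0.212) and mitochondria-specific genes for 26 of 31 (median 0.275).

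This direction rested on 1 heart. Without replicate 1 of Ctrl at 3 months, 37 of the 76 genes had a higher mean in TTg and the median was -0.02. Without replicate 2 of Ctrl at 3 months, the median was 0.575.

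Large-subunit genes gave the lowest p-values of this comparison. Mrpl28, a protein with a bacterial homologue, was at 8.47 and 8.16 in TTg hearts, against 6.93 and 7.43 in Ctrl hearts at 3 months. All TTg values exceeded all Ctrl values at 3 months, and the Ctrl values at 2 months (8.13 and 7.97) lay close to those of TTg. The log2 difference was 1.14 ± 0.27 (SE, n = 2 each), or 2.2-fold, with an adjusted p of 0.646 in limma. Mrpl19, also shared with bacteria, was at 9.69 and 9.71 in TTg hearts, against 8.20 and 9.21 in Ctrl hearts at 3 months. The TTg values were nearly equal and both higher, while the Ctrl replicates were 1 log2 unit apart.

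Mrpl45, a mitochondria-specific protein that lines the exit of the peptide tunnel and holds the ribosome at the inner membrane, was at 12.09 and 12.15 in TTg hearts. In Ctrl hearts at 3 months it was at 10.78 and 11.75, and in Ctrl hearts at 2 months at 11.56 and 11.59. TTg hearts were thus above the other 4 hearts, with a log2 difference of 0.86 ± 0.34 from Ctrl at 3 months and 0.55 ± 0.34 from Ctrl at 2 months (adjusted p in limma 0.661 for the first). Its promoter is the one above with 3 NRF1 matches. Mrpl50, another mitochondria-specific protein, was at 10.42 and 10.65 in TTg hearts, against 9.79 and 9.99 in Ctrl hearts at 3 months. Here both Ctrl hearts at 3 months were below all 4 other hearts, and the difference was 0.65 ± 0.23. Mrpl48 (0.65 ± 0.27) and Mrpl46 (0.45 ± 0.27) were likewise higher in both TTg hearts than in either Ctrl heart at 3 months. Mrpl39 was at 10.02 and 10.27 in TTg hearts, against 8.64 and 9.82 in Ctrl hearts at 3 months, and its Ctrl replicates were farther apart than its group means.

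Of the small subunit, Mrps34 was at 9.87 and 9.43 in TTg hearts, against 8.93 and 9.11 in Ctrl hearts at 3 months. Mrps9 was at 11.46 and 11.60 in TTg hearts, against 10.50 and 11.04 in Ctrl hearts at 3 months. The groups did not overlap in either gene, and the differences were 0.63 ± 0.25 for Mrps34 and 0.76 ± 0.32 for Mrps9. Mrps15 (0.61 ± 0.30) and Mrps5 (0.41 ± 0.23) also had both TTg hearts above both Ctrl hearts at 3 months.

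Mrpl52, a mitochondria-specific protein of the large subunit, had the lowest difference of the family. It was at 7.87 and 7.44 in TTg hearts, against 8.55 and 7.93 in Ctrl hearts at 3 months and 9.33 and 8.72 in Ctrl hearts at 2 months. Both TTg hearts were below all Ctrl hearts, although TTg replicate 1 was only slightly below Ctrl replicate 2 at 3 months. The difference from Ctrl at 3 months was -0.58 ± 0.34, with an adjusted p of 0.747 in limma. The other genes with both TTg hearts lower than both Ctrl hearts at 3 months were Mrpl4, Mrpl33 and Mrpl54, with differences of -0.32, -0.21 and -0.14.

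**Figure D3:**
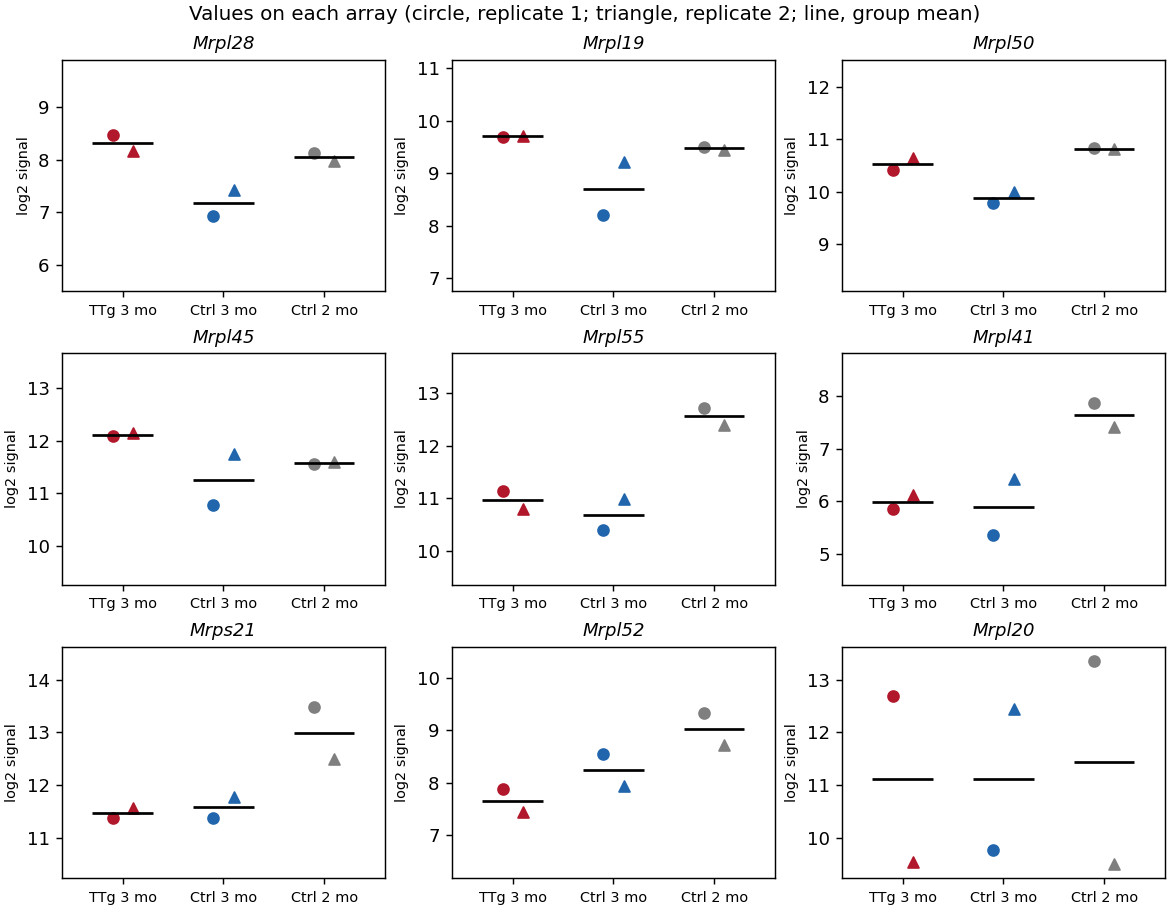
Log2 signal (y axis, each panel spanning the same number of log2 units) of 9 genes on each array, with replicate 1 as a circle, replicate 2 as a triangle and the group mean as a line. Mrpl28, Mrpl19, Mrpl50 and Mrpl45 are lowest in Ctrl at 3 months, Mrpl55, Mrpl41 and Mrps21 are highest in Ctrl at 2 months, and the replicates of Mrpl20 lie 3.15, 2.67 and 3.88 apart.

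Some genes of the family have further roles. Mrpl12 forms the stalk that recruits translation factors and also binds the mitochondrial RNA polymerase. It was at 12.24 and 11.60 in TTg hearts, against 10.89 and 11.66 in Ctrl hearts at 3 months and 12.33 and 11.94 in Ctrl hearts at 2 months. TTg and Ctrl overlapped at 3 months, with a difference of 0.65, and TTg replicate 1 and Ctrl replicate 1 were farthest apart. Mrpl58, a peptidyl-tRNA hydrolase that rescues stalled ribosomes, was at 10.81 and 10.66 in TTg hearts, against 9.83 and 10.72 in Ctrl hearts at 3 months. Mrps12, a protein of the decoding centre, was at 7.66 and 7.58 in TTg hearts, against 7.32 and 7.5 in Ctrl hearts at 3 months. The groups overlapped for Mrpl58 and did not for Mrps12, where the difference was 0.21. Mrps36, which is not ribosomal, was at 10.13 and 10.05 in TTg hearts, against 9.42 and 10.12 in Ctrl hearts at 3 months. Its r with the family mean, 0.99, was as high as that of any ribosomal gene.

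Ctrl hearts at 3 and 2 months differ in time after infarction and, with it, in age. Every mouse had its artery ligated at the same age, and no hearts without infarction were analysed here. Time after infarction and age therefore cannot be told apart in this comparison. The family had a lower mean at 3 months in almost every gene, and in this comparison the largest single differences of the family were found, though none passed the test. The mean was lower at 3 months for 72 of the 76 genes and higher for 4, where 48.8% and 50.5% of all features were, and the median log2 difference was -0.58, against 0.010 over all features. None of the 76 genes reached an adjusted p under 0.05 in limma, where 0.0045% of all features (1 of 22206) did, and the smallest adjusted p in the family was 0.377. At an unadjusted limma p under 0.05, 18 genes were lower and 0 higher, against 4.09% and 3.91% of all features. In 43 genes both hearts at 3 months were below both at 2 months, and in 0 genes both were above, against 17.4% and 18.3% of all features. The mean was lower in 24 of 25 small-subunit genes (median -0.54) and in 47 of 50 large-subunit genes (median -0.592). The exceptions with a higher mean at 3 months were Mrpl2, Mrpl35, Mrpl44 and Mrps2, with differences of 0.02, 0.45, 0.27 and 0.07.

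The size of this difference depended on the same hearts that stood apart above, and the direction of its median held when each heart was left out in turn. Without replicate 1 of Ctrl at 3 months, the median was -0.298 and 14 genes had a higher mean. Without replicate 1 of Ctrl at 2 months, the median was -0.405 and 12 genes had a higher mean. Without replicate 2 of Ctrl at 3 months the median was -0.88, and without replicate 2 of Ctrl at 2 months it was -0.795. In all 4 cases the median stayed below 0. The hearts that stood apart, replicate 1 of each Ctrl group, were not left out together. In the replicate 2 hearts the centred family median was -0.02 at 3 months and 0.12 at 2 months.

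Mrpl55, a large-subunit protein with a bacterial homologue, differed most. It was at 10.39 and 10.98 in Ctrl hearts at 3 months, against 12.72 and 12.39 in Ctrl hearts at 2 months. The groups lay over 1 log2 unit apart, and both TTg hearts (11.13 and 10.80) sat with Ctrl at 3 months. The log2 difference was -1.87 ± 0.29 (SE, n = 2 each), or 3.66-fold higher in Ctrl at 2 months, with an adjusted p of 0.377 in limma. Mrpl41, a mitochondria-specific protein, was at 5.36 and 6.42 in Ctrl hearts at 3 months, against 7.86 and 7.41 in Ctrl hearts at 2 months. Its TTg values (5.84 and 6.12) lay between those of Ctrl at 3 months, and the difference was -1.74 ± 0.38.

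Mrps21, a small-subunit protein with a bacterial homologue, was at 11.38 and 11.77 in Ctrl hearts at 3 months, against 13.49 and 12.49 in Ctrl hearts at 2 months. The groups did not overlap, although the Ctrl replicates at 2 months were 1 log2 unit apart, and the difference was -1.42 ± 0.36. Mrps15 was at 4.87 and 5.51 in Ctrl hearts at 3 months, against 6.15 and 6.46 in Ctrl hearts at 2 months, a difference of -1.11 ± 0.30. Mrpl3, which reaches towards the peptidyl transferase centre, was at 9.37 and 10.05 in Ctrl hearts at 3 months, against 11.06 and 10.44 in Ctrl hearts at 2 months. In each of these genes all hearts at 3 months were below all hearts at 2 months.

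The remaining named genes of this comparison differed by less. They were Mrpl50 (-0.93 ± 0.23), Mrps33 (-0.96 ± 0.28), Mrps14 (-0.90 ± 0.30), Mrpl28 (-0.87 ± 0.27), Mrpl46 (-0.81 ± 0.27), Mrps34 (-0.80 ± 0.25) and Mrpl13 (-0.67 ± 0.24). None of them overlapped between the groups, and their adjusted p in limma lay between 0.477 and 0.568. Of the 12 genes named here, Mrpl50, Mrpl28, Mrps34, Mrps15 and Mrpl46 were also among those named above as higher in TTg. Both comparisons use the same Ctrl hearts at 3 months, so a low value there enters each of them with opposite sign.

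**Figure D4:**
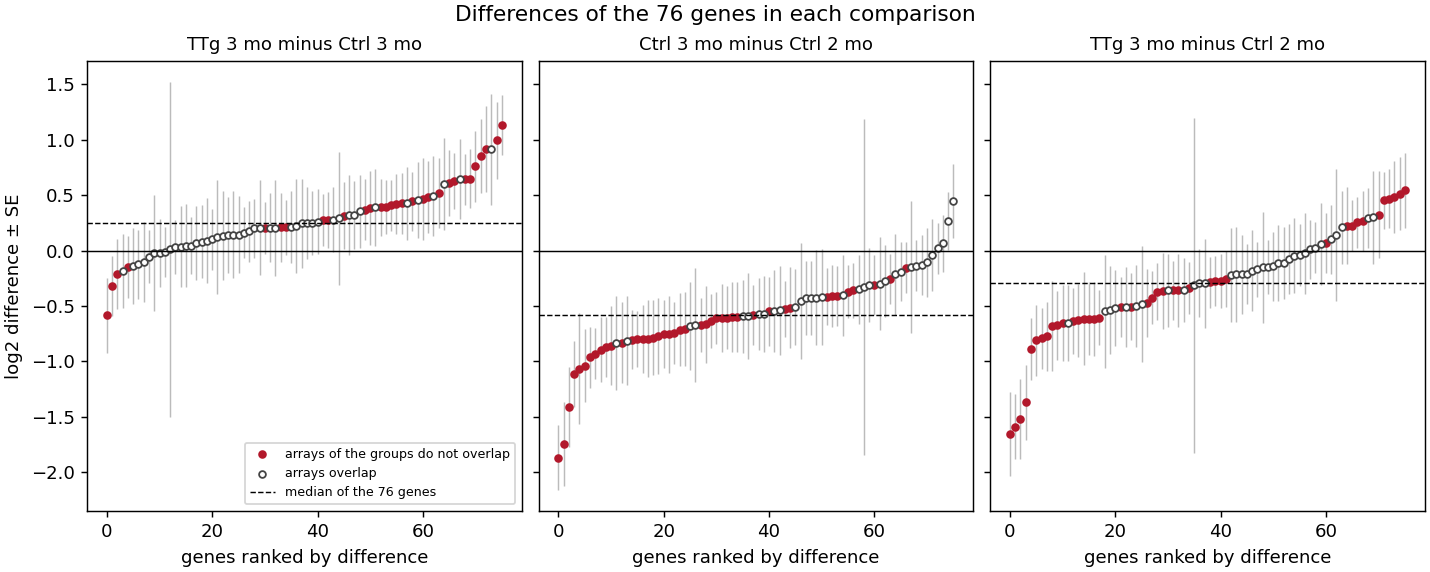
The log2 differences of the 76 genes with their SE (y axis), ranked within each comparison (x axis), with filled points where the groups do not overlap and the median as a dashed line. The medians lie at 0.248 for TTg minus Ctrl at 3 months, -0.58 for Ctrl at 3 months minus Ctrl at 2 months and -0.29 for TTg minus Ctrl at 2 months, and the longest error bar in each panel is that of Mrpl20.

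TTg hearts at 3 months and Ctrl hearts at 2 months differ in genotype and in time after infarction, and so also in age. The family had a lower mean in TTg for 57 of the 76 genes and a higher one for 19, where 47.3% and 52.1% of all features were, with a median log2 difference of -0.29 against 0.020 over all features. None of the 76 genes reached an adjusted p under 0.05 in limma, and neither did any other feature (0%). The smallest adjusted p was 0.340 in the family and 0.0762 over all features. At an unadjusted limma p under 0.05, 9 genes were lower and 0 higher, against 5.41% and 4.3% of all features. In 30 genes both TTg hearts were below both Ctrl hearts and in 11 genes both were above, against 18.9% and 21.2% of all features. Without replicate 1 of Ctrl at 2 months the median was -0.12 and 30 genes had a higher mean. Without replicate 2 of Ctrl at 2 months the median was -0.418.

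This comparison and that of the Ctrl groups share the Ctrl hearts at 2 months, so a high value there enters both with the same sign. The difference was -1.66 ± 0.38 for Mrpl41, -1.59 ± 0.29 for Mrpl55 and -1.52 ± 0.36 for Mrps21, with an adjusted p of 0.340 in limma for each. Mrpl52 followed at -1.37 ± 0.34, and its 6 values, given above, were ordered TTg, Ctrl at 3 months and Ctrl at 2 months without overlap between neighbouring groups. Mrpl54 (-0.89), Mrpl33 (-0.81), Mrps33 (-0.79) and Mrpl57 (-0.78) also had both TTg hearts below both Ctrl hearts. Mrpl33 was at 14.13 and 14.11 in TTg hearts, 14.34 and 14.32 in Ctrl hearts at 3 months, and 15.37 and 14.49 in Ctrl hearts at 2 months, again without overlap. In the opposite direction, Mrpl45, Mrpl35, Mrps9, Mrpl44 and Mrps2 had both TTg hearts above both Ctrl hearts at 2 months, with differences of 0.55, 0.52, 0.49, 0.47 and 0.46. These 5 were chosen after their values were seen.

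By group means, Ctrl at 3 months was lowest and Ctrl at 2 months highest with TTg between them in 45 of the 76 genes. TTg was the highest group, with Ctrl at 3 months lowest, in 15 genes. TTg was the lowest and Ctrl at 2 months the highest in 12 genes, Mrpl52 among them. In the last 4, Mrpl2, Mrpl35, Mrpl44 and Mrps2, Ctrl at 2 months was lowest and TTg highest.

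Genes for the rest of the mitochondrial translation apparatus were described from lists of related genes. Of 4 ribosomal proteins with other symbols, 2 had a higher and 2 a lower mean in TTg than in Ctrl at 3 months (median -0.042), and likewise 2 and 2 in Ctrl at 3 months against 2 months (median -0.083). Leaving out replicate 1 of Ctrl at 3 months, the count was 1 of 4 higher in TTg (median -0.3), and the median between the Ctrl groups was 0.218. Dap3, a GTP-binding protein of the small subunit, was at 11.85 and 11.92 in TTg hearts, against 11.17 and 11.59 in Ctrl hearts at 3 months and 11.55 and 12.25 in Ctrl hearts at 2 months. TTg was above Ctrl at 3 months without overlap, by 0.51 ± 0.31. Chchd1, another small-subunit protein, was at 7.66 and 7.07 in TTg hearts, 7.54 and 7.55 in Ctrl hearts at 3 months, and 8.96 and 8.58 in Ctrl hearts at 2 months. Both groups at 3 months were below Ctrl at 2 months, as with Mrpl55, and the difference between the Ctrl groups was -1.22 ± 0.29 (adjusted p 0.457 in limma). Gadd45gip1 differed by -0.39 ± 0.30 for TTg against Ctrl at 3 months and by 0.41 ± 0.30 between the Ctrl groups, and Ptcd3 by 0.10 ± 0.36 and 0.35 ± 0.36. The groups overlapped for both genes in both comparisons.

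Of 24 genes for assembly of the mitochondrial ribosome, 18 had a higher mean in TTg than in Ctrl hearts at 3 months, with a median of 0.30. Of 16 translation factors, 15 were higher, with a median of 0.355, and of 16 mitochondrial tRNA synthetases 15 were higher, with a median of 0.353. Of 21 genes for mitochondrial transcription and genome maintenance, 17 were higher (median 0.20), and of 30 respiratory chain subunits 26 were higher (median 0.262). The counts moved with 1 heart: without replicate 1 of Ctrl at 3 months, 13 assembly genes (median 0.092), 11 translation factors (0.17), 10 tRNA synthetases (0.115), 11 transcription and genome genes (0.02) and 18 respiratory chain subunits (0.04) had a higher mean in TTg. None of these genes passed the adjusted threshold in limma. The highest respiratory chain subunit was at 19.93 on every array, the highest value of any feature, and 1 subunit had a difference of 0. The top of the scale may therefore hide differences in that list, which was not tested. Mtif2, the initiation factor of mitochondrial translation, had the lowest p-value among translation factors. It was at 10.69 and 10.82 in TTg hearts, against 9.44 and 10.14 in Ctrl hearts at 3 months and 9.17 and 9.36 in Ctrl hearts at 2 months. TTg hearts were above all Ctrl hearts, by 0.97 ± 0.29 over Ctrl at 3 months and 1.49 ± 0.29 over Ctrl at 2 months. Tufm, the elongation factor that delivers aminoacyl-tRNA, differed from Ctrl at 3 months by 0.65 ± 0.30. Nsun4, which methylates the small ribosomal RNA, differed by 0.97 ± 0.42, Trmt2b, an RNA methyltransferase, by 0.86 ± 0.32, and Nars2, the asparaginyl-tRNA synthetase, by 0.81 ± 0.25.

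Between the Ctrl groups the mean at 3 months was lower than at 2 months for 16 of 24 assembly genes (median -0.242), 12 of 16 translation factors (median -0.362) and 10 of 16 tRNA synthetases (median -0.23). It was lower for 15 of 21 transcription and genome genes (median -0.17) and for 26 of 30 respiratory chain subunits (median -0.388). Without replicate 1 of Ctrl at 3 months the median turned to 0.02 for assembly genes, 0.008 for translation factors, 0.09 for tRNA synthetases and 0.13 for transcription and genome genes, and was -0.167 for respiratory chain subunits. Without replicate 1 of Ctrl at 2 months it turned to 0.008 for assembly genes. Whether the lists differ from the ribosomal proteins was not tested. Slirp, which stabilises mitochondrial mRNAs with Lrpprc, was at 9.0 and 9.28 in Ctrl hearts at 3 months, against 10.78 and 10.16 in Ctrl hearts at 2 months, a difference of -1.33 ± 0.28. Cox8b, a subunit of cytochrome oxidase, differed by -1.0 ± 0.31 and Sdhd, a membrane anchor of complex II, by -0.88 ± 0.28. None of these passed the adjusted threshold in limma.

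Of 14 regulators of nuclear genes for mitochondria, 8 had a higher mean in TTg than in Ctrl at 3 months (median 0.028), and 10 had a higher mean in Ctrl at 3 months than at 2 months (median 0.428). Without replicate 2 of Ctrl at 3 months, 7 of 14 had a higher mean at 3 months than at 2 months (median -0.04), and without replicate 1 of Ctrl at 2 months the median was 0.138. Leaving out replicate 1 of Ctrl at 3 months, 6 of 14 had a higher mean in TTg than in Ctrl at 3 months (median -0.188). Ppargc1a, a coactivator of mitochondrial biogenesis, was at 15.14 and 16.53 in TTg hearts, 15.88 and 15.77 in Ctrl hearts at 3 months, and 14.13 and 15.08 in Ctrl hearts at 2 months. TTg and Ctrl overlapped at 3 months, and Ctrl at 3 months was above Ctrl at 2 months by 1.22 ± 0.50 without overlap. Esrrb, an oestrogen-related receptor, was at 5.51 and 6.17 in Ctrl hearts at 3 months, against 4.33 and 5.08 in Ctrl hearts at 2 months. Tfam, which packages mitochondrial DNA and activates its transcription, was at 7.5 and 8.29 in TTg hearts, 7.57 and 7.93 in Ctrl hearts at 3 months, and 8.06 and 7.66 in Ctrl hearts at 2 months. All 3 groups overlapped for Tfam. Myc, a transcription factor that activates ribosome genes, was at 9.61 in replicate 1 of Ctrl at 3 months and between 6.16 and 6.89 in the other 5 hearts. The heart with the high Myc value is the one with the low ribosomal protein values, and the relation was not tested.

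**Figure D5:**
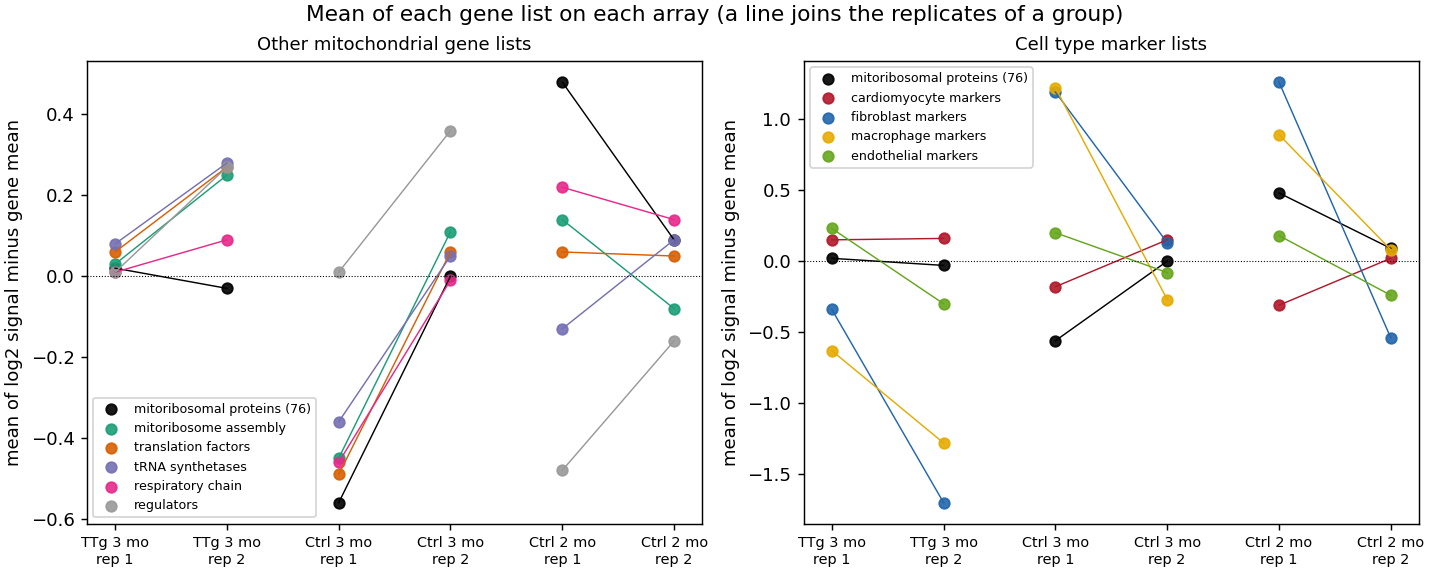
The mean over each list of log2 signal minus gene mean (y axis) on each array, for mitochondrial lists on the left and cell type markers on the right, with a line joining the replicates of a group. Replicate 1 of Ctrl at 3 months is lowest for the ribosomal proteins (-0.56) and high for fibroblast (1.19) and macrophage (1.22) markers, whereas replicate 1 of Ctrl at 2 months is highest for the ribosomal proteins (0.48) and also high for both marker lists (1.26 and 0.89).

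Fibroblast and macrophage markers differed more between the hearts than the family did. The 9 fibroblast markers measured averaged 11.26 and 9.91 in TTg hearts, 12.79 and 11.73 in Ctrl hearts at 3 months, and 12.87 and 11.06 in Ctrl hearts at 2 months. The 9 macrophage markers averaged 8.21 and 7.56 in TTg hearts, 10.06 and 8.57 in Ctrl hearts at 3 months, and 9.73 and 8.92 in Ctrl hearts at 2 months. Both lists were lowest in TTg replicate 2 and highest in the replicate 1 hearts of the Ctrl groups, and no marker was at 0. All 9 fibroblast and all 9 macrophage markers had a lower mean in TTg than in Ctrl at 3 months, against 48.3% of all features. Of these, 8 and 7 were lower without overlap, against 19.3% of all features. The 12 cardiomyocyte markers had centred means of 0.15 and 0.16 in TTg hearts, -0.18 and 0.15 in Ctrl hearts at 3 months, and -0.31 and 0.02 in Ctrl hearts at 2 months. The highest of them was at 19.93 on every array, which is also the highest value of any feature. Between TTg and Ctrl at 3 months, 3 of the 12 had a difference of 0. The top of the scale may therefore hide differences in these markers, which was not tested. Between TTg and Ctrl hearts at 3 months, the group means of fibroblast and macrophage markers thus differed in the opposite direction to those of the ribosomal proteins. In both TTg hearts and Ctrl replicate 2 at 3 months, the centred ribosomal protein means were 0.02, -0.03 and 0.0. In the same hearts they were -0.34, -1.7 and 0.13 for fibroblast markers and -0.63, -1.28 and -0.27 for macrophage markers. The part of these markers in the ribosomal protein result was not tested. The hearts highest in fibroblast and macrophage markers, replicate 1 of both Ctrl groups, were at opposite ends for the ribosomal proteins.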

How the data were processed

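Log2 signals of 22206 features on 6 mouse Clariom S arrays were used as the authors deposited them, in 1 table for the series. The submitters' processing notes name Transcriptome Analysis Console 4.0. The summary, background and normalization methods are not given in the sources used here, and no further normalization was applied. Per the labels, the input was 100 ng of RNA and the RNA integrity number had to exceed 7.0. Symbols came from the platform annotation, with 2634 features without one. For repeated symbols (67 on the array, 0 in the family) the feature of the highest mean was used.

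limma 3.58.1 in R 4.3.3 was fitted to all features and all 6 arrays with 1 coefficient per group (3 residual and 4.13 prior degrees of freedom). Tests were two-sided, with Benjamini-Hochberg adjustment over the 22206 features and a threshold of 0.05. Errors are SE of this fit. With 2 arrays a group, 0.333 is the smallest p an exact permutation test allows. The number of arrays limits the precision. Each p-value weighs a group difference against the spread between replicates, pooled over the groups and moderated by that of all features.

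Lists and medians are descriptions with no test. The members, lists and alternatives were chosen with earlier results of these data known. Genes named are those past the threshold or, where fewer than 12 passed (8 for TTg against Ctrl at 2 months), members of smallest unadjusted p whose groups do not overlap, with Mrpl12, Mrpl58, Mrps36, Mrps12, Dap3, Ppargc1a and Tfam always, and up to 3 genes of each other list by the same order. Mrpl2, Mrpl4, Mrpl9, Mrpl14, Mrpl20, Mrpl21, Mrpl33, Mrpl35, Mrpl44, Mrpl54 and Mrps2 were named after their values were seen where they are counted exceptions, and Gadd45gip1 and Ptcd3 to complete a short list. The fit was run on simulated data with these arrays' spread, drawn separately for each feature and array. This checks that a known mean shift is recovered, and not how genes that move together behave. The 15 alternatives were another prior, normalization, feature set, set of arrays, a replicate block and leaving out each array.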

Additional observations from a re-analysis of the deposited data

How the results depend on the processing

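None of the 76 genes passed an adjusted p under 0.05 in limma under any of the 15 alternatives. The smallest adjusted p of the family ranged between 0.195 and 0.999 for TTg against Ctrl at 3 months, 0.239 and 0.789 for Ctrl at 3 against 2 months, and 0.113 and 0.867 for TTg against Ctrl at 2 months. Features passing numbered 1, 1 and 0. For TTg against Ctrl at 3 months they were 2 with the 2 groups alone, 11 with the replicate number as a block, and 0 to 2 leaving out an array. For Ctrl at 3 against 2 months they were 0 with an intensity trend, with quantile normalization and without dim features, and 0 to 6 leaving out an array. For TTg against Ctrl at 2 months they were 1 with a robust prior, 5 with the replicate block, and 0 to 22 leaving out an array. The cause was not tested. The block changed no call in the family. Same-numbered hearts shared deviations at correlations of 0.120, 0.133 and 0.136, and nothing in the labels pairs them. Leaving out an array, the family median ranged from -0.02 to 0.575, from -0.88 to -0.298 and from -0.418 to -0.12, genes with a higher mean from 37 to 69, 2 to 14 and 16 to 30, and genes at an unadjusted p under 0.05 in the main direction from 1 to 16, 6 to 36 and 4 to 16. Of the values of the 16, 16 and 12 named family genes under the alternatives, 239 of 240, 239 of 240 and 177 of 180 kept their direction. The rest turned sign leaving out 1 array. Most of these genes were named because their groups do not overlap, so leaving out 1 array cannot turn their sign. Another prior leaves the difference itself unchanged. These counts were thus largely set by the choice of genes. For TTg against Ctrl at 3 months, Mrps36 ranged from -0.03 (without Ctrl replicate 1 at 3 months) to 0.67. For Ctrl at 3 against 2 months, Mrps12 ranged from -0.76 to 0.06 (without Ctrl replicate 1 at 2 months). For TTg against Ctrl at 2 months, Mrpl58 ranged from -0.335 to 0.115 and Mrps12 from -0.55 to 0.27 (both highest without that same heart), and Mrpl12 from -0.535 to 0.105 (highest without TTg replicate 2). Added after seeing the data, 310 of 315, 313 of 315 and 324 of 330 values of the 21, 21 and 22 named genes of the other lists kept their direction. Those that turned were of Ppargc1a, Tfam and Dap3, which are always named, and the other list genes were chosen without overlap, so the same limit holds. Ppargc1a for TTg against Ctrl at 3 months was at -0.041 with quantile normalization and ranged from -0.685 to 0.705 leaving out an array, and Tfam from -0.25 to 0.54. For Ctrl at 3 against 2 months, Tfam ranged from -0.31 to 0.09. Dap3 for TTg against Ctrl at 2 months was at 0.082 with quantile normalization and 0.01 with median centring and ranged from -0.365 to 0.335, and Tfam from -0.36 to 0.43. Every family value lay above the dim level of 3.65. Fits without an array assume that the remaining array of that group varies as the other groups do.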

Other observations

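Mrpl20, a large-subunit protein with a bacterial homologue, split the replicates of every group. It was at 12.69 and 9.54 in TTg hearts, 9.77 and 12.44 in Ctrl hearts at 3 months, and 13.37 and 9.49 in Ctrl hearts at 2 months. The replicates were thus 3.15, 2.67 and 3.88 log2 units apart, with 3 hearts between 12.44 and 13.37 and 3 hearts between 9.49 and 9.77, 1 high and 1 low in each group. The group means were close, with a difference of 0.01 between TTg and Ctrl at 3 months. Only 3 of the 22206 features, Mrpl20 included, had replicates at least 2.67 apart in every group, and the next gene of the family, Mrpl14, had a smallest gap of 0.78. Among 10 measured neighbours of Mrpl20 on chromosome 4, the highest such gap was 0.41, in Mxra8. The gene was singled out after its values were seen, and no value bearing on the origin of the split was available beyond these.

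Mrpl14, which binds near the subunit interface, was at 7.34 and 6.15 in TTg hearts, 5.44 and 6.22 in Ctrl hearts at 3 months, and 7.37 and 6.42 in Ctrl hearts at 2 months. The replicates were 1.19 apart in TTg, 0.78 in Ctrl at 3 months and 0.95 in Ctrl at 2 months. The log2 differences were 0.92 for TTg against Ctrl at 3 months and -0.15 for TTg against Ctrl at 2 months, both with overlap, and -1.06 for Ctrl at 3 against 2 months, without overlap.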
